A study of Mus musculus with 9 samples.

Results

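Transcripts for the proteins of the cytosolic ribosome were followed in mouse bone marrow-derived macrophages (BMDMs) on their way to osteoclasts. A gene was included when its symbol was Rps or Rpl followed by a number and at most 1 further letter (a, x or l), or when it was Rplp0, Rplp1, Rplp2 or Rpsa, and rows named as pseudogenes (-ps) were left out. The rule took 82 of the 28379 genes in the deposited table, of which 32 carry the name of the small (40S) subunit and 50 that of the large (60S) subunit. In GENCODE M21, 79 of the 82 are protein coding, while Rps4l, Rpl6l and Rpl32l are annotated as processed pseudogenes. Ribosomal protein genes whose symbols fall outside the rule, such as Fau and Rack1, were examined as a separate list.

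Poly(A) RNA was sequenced from 9 libraries in 3 groups of 3. All BMDMs came from 10-week-old C57BL/6J mice and were kept in M-CSF (20 ng/ml), the growth factor that maintains macrophages. The PBS group received vehicle, the RANKL group received RANKL (100 ng/ml), the cytokine that turns these cells towards osteoclasts, while cells labelled RANKL + Vit D + K had the same RANKL together with vitamin D (calcitriol, 1000 nM) and vitamin K (MK4, 20 μM by the sample labels, where the study's methods give a higher dose), each for 48 h. The library is described as built from pooled RNA and the source of each replicate is not given, so p-values measure only the spread between these libraries, which may be technical.

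A ribosome holds 1 copy of nearly every ribosomal protein, and cells make these proteins in matched amounts. Their mRNAs are short, very abundant and long-lived, and most begin with a C and a run of pyrimidines, the 5′ terminal oligopyrimidine (TOP) tract, through which mTORC1 and LARP1 set their translation without a large change in their amount. Several ribosomal proteins are carried to the assembling ribosome by chaperones of their own, and free copies of a few of them bind MDM2 and so act on p53.

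The start of 6 of the genes is shown because the tract lies there and because several of them are the genes whose levels differed between groups. Each line runs from 10 bases before the RefSeq start site to 20 bases from it (GRCm38.p6), and capitals mark a C followed by at least 4 pyrimidines where that run begins within 10 bases of the start site.
Rpl12, chr2:32961702-32961731, plus strand: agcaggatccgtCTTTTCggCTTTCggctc
Rpl27a, chr7:109519185-109519214, plus strand: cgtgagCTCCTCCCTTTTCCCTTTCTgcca
Rpl15, chr14:18270967-18270996, minus strand: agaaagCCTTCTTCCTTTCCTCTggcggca
Rps6, chr4:86857348-86857377, minus strand: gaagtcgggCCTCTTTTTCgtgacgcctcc
Rpsa, chr9:120127756-120127785, plus strand: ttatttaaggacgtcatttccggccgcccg
Rpl4, chr9:64173377-64173406, plus strand: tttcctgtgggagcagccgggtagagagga
Rpl12 and Rpl27a, which were higher in RANKL + Vit D + K than in PBS, and Rpl15, which was lower, all held such a tract within 10 bases of the start, whereas Rpsa and Rpl4, also higher, did not at the site RefSeq gives. Of the 82 genes, 60 matched a RefSeq start window, and 35 of these (58.3%) held the tract, against 32.6% of 14372 genes of the table with a window. The letters CCGGAAG, the core recognised by GABPA and other ETS factors, stood on either strand of the 300 bases around the start in 25 of the 60 (41.7%) and in 14.9% of all genes, and AAGATGG, the core recognised by YY1, in 8 (13.3%) and 6.64%. TATAAA was found in the 50 bases before the start in 0 of the 60 and in 2.01% of all genes. GENCODE marks 31 of the 82 genes (37.8%) as hosts of small RNAs in their introns, against 6.52% of 21951 protein-coding genes.

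Total counts lay between 65915112 and 68229647 per library, and all 82 genes passed the filter on low counts that left 17002 genes for testing. As a check of the labels, the summed FPKM of 10 osteoclast genes was 23.6 to 31.8 in PBS, 489 to 1022 in RANKL and 70.4 to 100.4 in RANKL + Vit D + K, and that of 8 macrophage genes was 26410 to 30650, 16670 to 24300 and 4533 to 11580. Osteoclast markers were thus highest in RANKL and macrophage markers in PBS, with no overlap between groups for either list. The summed FPKM of 8 neutrophil genes ranged over 11.1 to 128 in PBS, 11.3 to 148 in RANKL and 0.551 to 1.72 in RANKL + Vit D + K, and those of B cell, dendritic, erythroid and stromal markers stayed below 0.31 in every library. The part of these cells in the results was not tested. In bulk RNA a change in the mix of cells and a change within each cell cannot be told apart. One library stood apart: RANKL + Vit D + K replicate 2 was the lowest of its group for 74 of the 82 ribosomal protein genes and replicate 1 the highest for 73. Counts of genes past the adjusted threshold are therefore also given without replicate 2, while the interval, overlap and unadjusted counts use all 9 libraries.

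**Figure D1:**
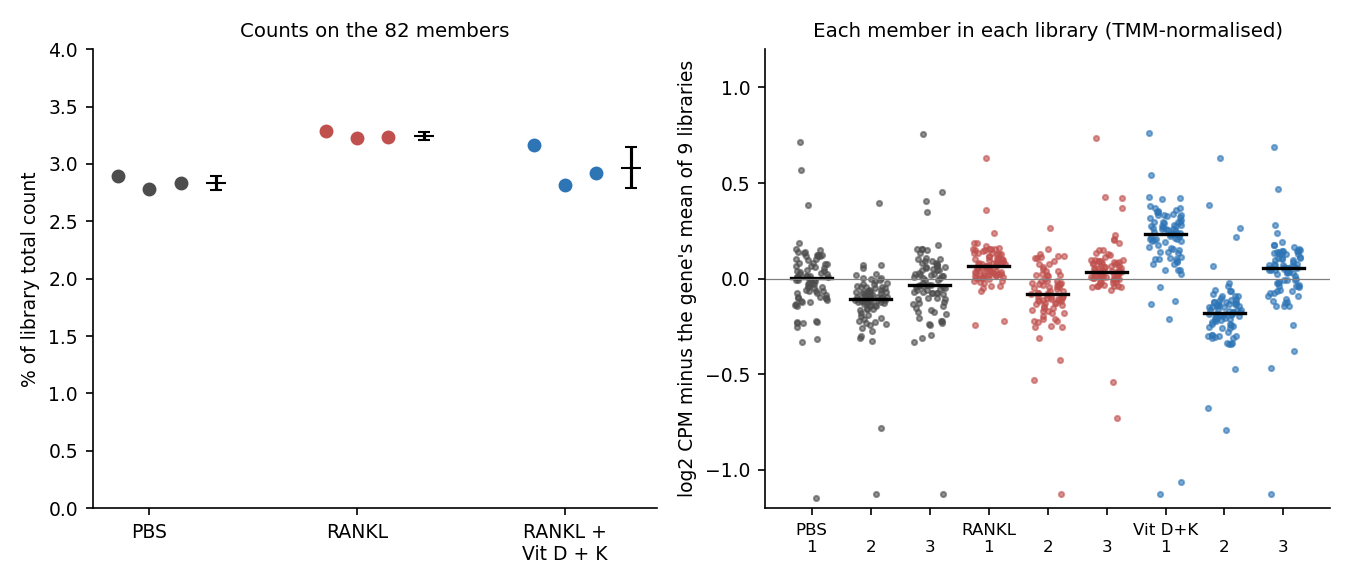
Left, counts on the 82 genes as a percentage of each library's total, with the mean and SD of 3 libraries beside the points. Right, each gene's log2 CPM in each library minus its mean over 9 libraries, with the median as a black line and 6 values beyond 1.2 not drawn; the medians of the 3 RANKL + Vit D + K libraries are 0.24, -0.18 and 0.05, a wider spread than in the other groups.

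As a mass, the ribosomal protein transcripts made up 2.90%, 2.78% and 2.83% of all counts in the PBS libraries, and 3.28%, 3.22% and 3.23% in the RANKL libraries. With vitamins added the shares were 3.16%, 2.82% and 2.92%. All 3 RANKL libraries lay above all 3 PBS libraries, and RANKL + Vit D + K overlapped with PBS. The means were 2.84% ± 0.0596 in PBS, 3.25% ± 0.0337 in RANKL and 2.97% ± 0.179 in RANKL + Vit D + K (SD, n = 3 libraries). Their share of summed FPKM, which weighs each transcript by its length, was 5.01% ± 0.119, 5.63% ± 0.0302 and 5.57% ± 0.435 in the same order. A share depends on what the other genes do, and the TMM factors, which correct for that, ran from 0.963 to 0.993 in PBS, from 1.04 to 1.11 in RANKL and from 0.891 to 1.07 in RANKL + Vit D + K. On the TMM-corrected log2 CPM scale, the median deviations of the 82 genes were 0.01, -0.10 and -0.03 in PBS and 0.06, -0.08 and 0.03 in RANKL, ranges that overlap, although each RANKL median lay above that of the same-numbered PBS library. Mitochondrially encoded transcripts, a sign of RNA quality, took 2.54% to 2.67% of counts in PBS, 3.06% to 3.26% in RANKL and 2.58% to 3.02% in RANKL + Vit D + K, and their part in the share was not tested.

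The order of the genes by FPKM, which is per transcript length, changed little between groups. Rplp1, an acidic protein of the P-stalk that recruits elongation factors, was highest with 811, 808 and 769.7 FPKM in PBS, 981, 929.9 and 909.8 in RANKL and 999, 847 and 875.5 in RANKL + Vit D + K. Rplp0, the base of the same stalk, followed with 576, 559 and 566 FPKM in PBS, 729.7, 721 and 699 in RANKL and 699, 616 and 624 in RANKL + Vit D + K, below Rplp1 in each of the 9 libraries. Rplp2, the partner of Rplp1 in the stalk, was lower at 72.8 to 78.5 FPKM in PBS, 92.0 to 96.7 in RANKL and 82.9 to 97.1 in RANKL + Vit D + K. The deposited counts in PBS were 29800, 30280 and 28690 for Rplp1 and 11979, 11343 and 11869 for Rplp2. The gap in counts was smaller than that in FPKM, which also depends on the length assigned to each transcript. After Rplp0 came Rpl19, Rps15, Rpl4 and Rpl10 with means over 9 libraries of 477, 468, 460.3 and 425 FPKM, and the values of these 4 over the libraries overlapped. The median gene had 152 FPKM, and the lowest was Rpl3l with 0.0362. Spearman's correlation of the group means over the 82 genes was 0.990 for PBS and RANKL, 0.994 for RANKL and RANKL + Vit D + K, and 0.984 for PBS and RANKL + Vit D + K; this is across genes, which are not independent and share length and read assignment in every library.

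RANKL against PBS asks what the osteoclast signal alone did to these transcripts. In edgeR's quasi-likelihood test, 0 of the 82 genes were higher and 0 lower at an adjusted p under 0.05, against 2.35% and 1.26% of all genes tested, and 6 were higher and 0 lower at an unadjusted p under 0.05, beside 1693 and 1470 of the 17002 genes. DESeq2 also called 0 in each direction, while 9 were higher with voom quality weights, 9 with limma on log2(FPKM + 1), 6 with the 2 groups fitted alone and 4 with library totals alone. The shares of all genes called in these other fits are not reported here. The median log2 fold change of the 82 was 0.05, beside -0.04 over all genes tested, and 0 members moved by more than 1 on the log2 scale while 13.5% of all genes and 2.38% of abundant genes (mean log2 CPM of at least 6) did. Small upward shifts were frequent: in 23 of the 82 genes all RANKL libraries lay above all PBS libraries, and in 0 all lay below, against 15.7% and 19.9% of all genes tested. Among those with an unadjusted p under 0.05 were Rpl27a (log2 fold change 0.37, adjusted p = 0.159), Rps27l (0.32), Rps26 (0.30), Rpsa (0.29) and Rpl23a (0.29), listed after their values were seen. The 2 called without RANKL + Vit D + K replicate 2, which shares in the estimate of spread, were Rpl27a (adjusted p = 0.0212) and Rps26 (adjusted p = 0.0331), in a fit that called 5.46% of all genes higher, 5.23% lower and 22.7% of abundant genes in either direction.

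RANKL + Vit D + K against RANKL asks what the vitamins added. Here 2796 genes (16.4%) rose and 2929 (17.2%) fell, but 0 of the 82 ribosomal protein genes were higher and 1, Rpl15, was lower in edgeR's quasi-likelihood test. At an unadjusted p under 0.05 the counts were 0 and 1, beside 3586 and 4019 of all genes tested, and DESeq2 also gave 0 and 1. Limma on log2(FPKM + 1) gave 0 and 12, voom with quality weights 5 and 6, and library totals alone 0 and 5. For these fits too the share of all genes called is not reported here. Of 3405 abundant genes, those with a mean log2 CPM of at least 6, 50% were called in either direction, against 1 of the 75 ribosomal protein genes at that level. The same comparison for RANKL against PBS gave 5.81% of abundant genes and 0 of 75. The median log2 fold change of the 82 was 0.03 beside -0.04 over all genes, and it turned to -0.12 beside -0.18 with library totals alone and to -0.06 beside -0.13 with upper-quartile factors. The interquartile range was 0.17 beside 1.23. Small and large subunit genes had the same median, 0.03. Groups did not overlap for 0 genes in the upward and 2 (Rpl15 and Rpl7) in the downward direction, against 21.5% and 25.4% of all genes tested.

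A p that misses the threshold does not show that a transcript was level, so the intervals are given. The 95% interval of the log2 fold change lay inside a 1.5-fold change in either direction for 71 of the 75 abundant ribosomal protein genes in RANKL against PBS, for 71 in RANKL + Vit D + K against RANKL and for 65 in RANKL + Vit D + K against PBS, which is 94.7%, 94.7% and 86.7%. Among all abundant genes the shares were 52.4%, 33.7% and 30.5%. Over all 82 genes the counts were 72, 73 and 67, and those outside include the low or variable genes described with the paralogs and copies.

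**Figure D2:**
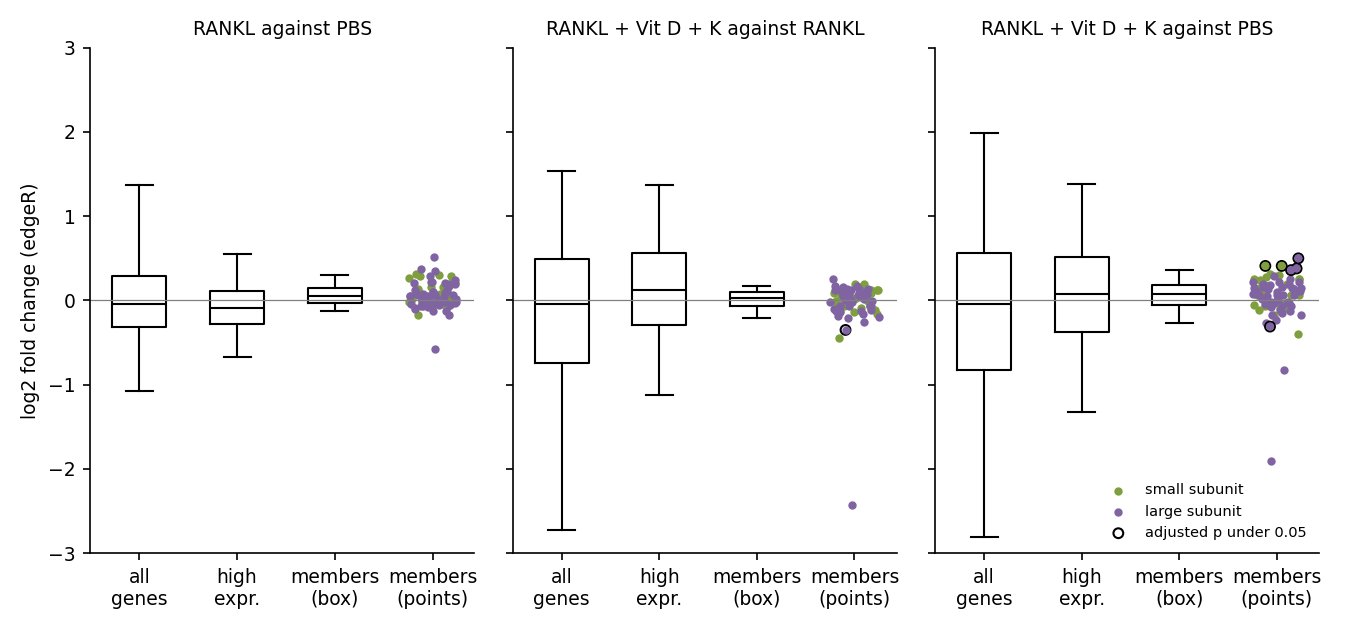
edgeR log2 fold changes in the 3 comparisons. Boxes show the median and quartiles with whiskers at the 5th and 95th percentiles for all genes tested (n = 17002), genes with a mean log2 CPM of at least 6 (n = 3405) and the 82 members, whose points are drawn beside (rings, adjusted p under 0.05); the box of the members spans 0.18, 0.17 and 0.23 while that of all genes spans 0.61, 1.23 and 1.38.

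RANKL + Vit D + K against PBS, which shares its groups with the comparisons above, gave 5 ribosomal protein genes higher and 1 lower, against 19.8% and 21% of all genes tested and 54.6% of abundant genes in either direction. Rpl12 had 82.8, 89.2 and 76.2 FPKM in PBS, 105.3, 114 and 100.5 in RANKL and 130.2, 102 and 111 in RANKL + Vit D + K. Both RANKL groups lay above PBS and overlapped with each other. Rpl12, a protein at the root of the P-stalk, was 1.42-fold higher than in PBS (log2 fold change 0.50, SE 0.145, adjusted p = 0.0221), and had the largest rise of the 82.

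Rpsa, the 40S protein also known as the laminin receptor, had 230.4, 236 and 227.5 FPKM in PBS, 311, 321 and 296 in RANKL and 325, 289.7 and 286 in RANKL + Vit D + K. Every library with RANKL lay above every PBS library. On the log2 scale Rpsa rose by 0.41 (SE 0.117, adjusted p = 0.0222).

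Rpl27a, a 60S protein, had 92.5, 90.6 and 96.2 FPKM in PBS, 130.5, 137 and 127 in RANKL and 129, 108 and 119 in RANKL + Vit D + K. Rpl4, a large protein that lines the exit tunnel, had 404, 393 and 378 FPKM in PBS, 498, 521 and 476 in RANKL and 531, 454 and 488 in RANKL + Vit D + K. PBS was again the lowest group in each library. Rpl27a rose by 0.38 (SE 0.129, adjusted p = 0.0401) and Rpl4 by 0.36 (SE 0.125, adjusted p = 0.0464). FPKM carries no TMM factor, so the ratio of FPKM means differs somewhat from the fitted fold change.

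**Figure D3:**
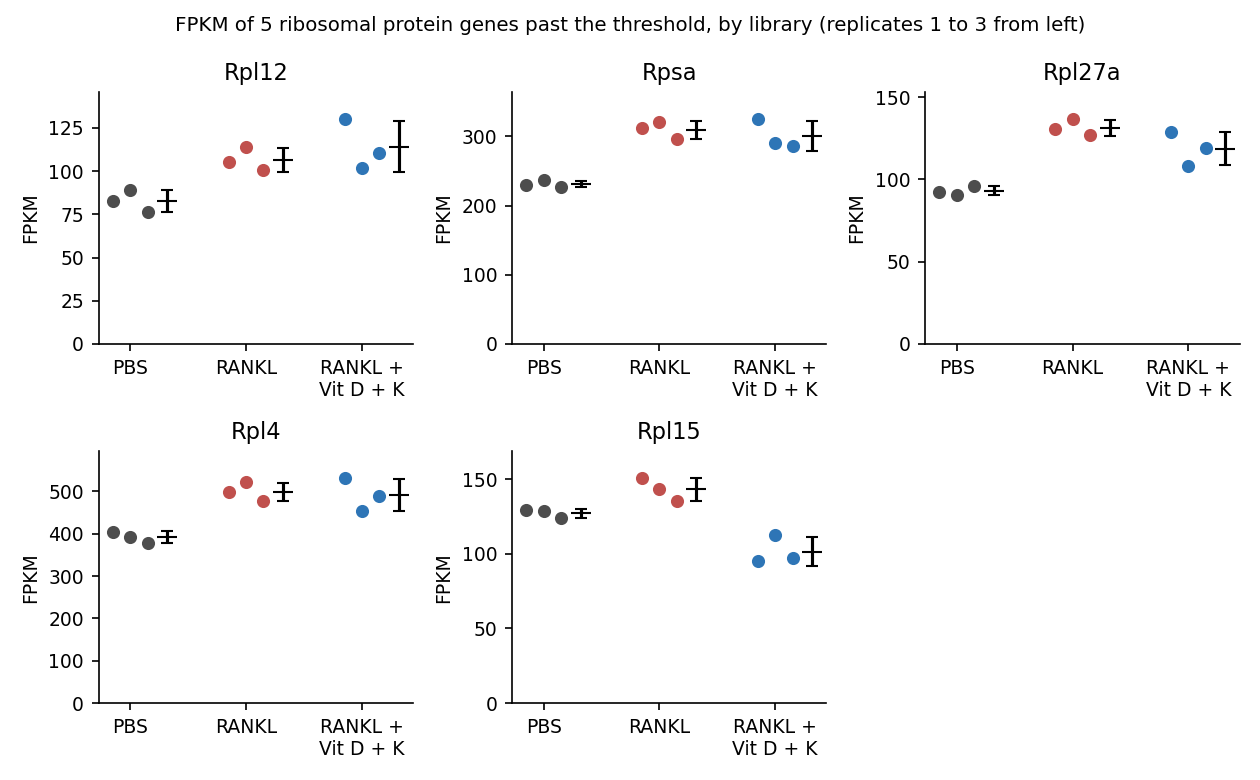
FPKM in each of 9 libraries for 5 genes past the threshold in RANKL + Vit D + K against PBS, with the mean and SD (n = 3) beside each group. In Rpl12, Rpsa, Rpl27a and Rpl4 the PBS libraries are the lowest, and in Rpl15 the RANKL + Vit D + K libraries (94.9 to 112 FPKM) are.

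Rpl15, an early-assembling 60S protein, went the other way. It had 129, 128 and 124 FPKM in PBS, 151, 143 and 135 in RANKL and 94.9, 112 and 97.3 in RANKL + Vit D + K, with the third group below the others in each library. It fell by 0.35 against RANKL (SE 0.0913, adjusted p = 0.0175) and fell by 0.31 against PBS (SE 0.0912, adjusted p = 0.0252), and it had the smallest spread between replicates of the 82 (SD 0.0565 on log2 CPM). Rpl7, picked out here after its values were seen because its groups did not overlap either, had 187, 179 and 191 FPKM in PBS, 195, 195 and 194 in RANKL and 153, 152 and 149 in RANKL + Vit D + K, with log2 fold changes of -0.21 against RANKL (adjusted p = 0.142) and -0.27 against PBS (adjusted p = 0.0646). In RANKL + Vit D + K against PBS the groups did not overlap for 8 genes upward and 3 downward, against 24.1% and 29.0% of all genes tested.

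Of 23 alternative analyses, Rpsa passed in 22, Rpl12 in 21, Rpl27a in 14 and Rpl4 in 12, and Rpl15 passed in 17 against RANKL and in 15 against PBS. Without RANKL + Vit D + K replicate 2, RANKL + Vit D + K against RANKL gave 8 higher and 1 lower, with a median of 0.13 beside -0.11 over all genes, and RANKL + Vit D + K against PBS gave 26 higher and 1 lower, with a median of 0.19 beside -0.08. In that fit 23.3% of all genes were higher and 26.5% lower against PBS, and 70.5% of abundant genes were called beside 27 of the 75 abundant ribosomal protein genes. The P-stalk genes Rplp0 (0.32), Rplp1 (0.33) and Rplp2 (0.36) were among the 26. The 8 higher than in RANKL were Rpl12 (0.40), Rps20 (0.33), Rps15a (0.33), Rpl23 (0.31), Rpl31 (0.30), Rpl9 (0.30), Rps12 (0.26) and Rpl4 (0.25), which were named after their values were seen, and there 21.2% of all genes were higher and 25.2% lower, and 67.6% of abundant genes were called beside 9 of 75. Ribosomal protein transcripts are short, with a median length 0.487 times that of all genes tested. After the trend of fold change on length was removed, their median became 0.24 against RANKL (0.03 over all genes), with 0 higher and 0 lower. Against PBS it became 0.31 (0.06 over all genes), with 16 higher and 0 lower. The share of all genes called in that fit is not reported here, so these counts have no background beside them. Under that correction Rpl15 was -0.13 against RANKL (adjusted p = 0.372).

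The genes of the 5S particle, Rpl5 and Rpl11, which hold MDM2 in check when ribosome assembly fails, had 138 to 146 and 118 to 129 FPKM in PBS, 149 to 156 and 122.5 to 133 in RANKL, and 134 to 158 and 103 to 118 in RANKL + Vit D + K. Neither passed in any comparison, with log2 fold changes for RANKL + Vit D + K against PBS of 0.07 (95% interval -0.22 to 0.37) and -0.17 (-0.45 to 0.12). Rps6, the substrate of S6 kinase whose phosphorylation is read as mTORC1 activity, had 322, 323 and 303 FPKM in PBS, 404, 427 and 379 in RANKL and 419.9, 360.3 and 376 in RANKL + Vit D + K. Its groups with RANKL did not overlap with PBS, at log2 fold changes of 0.23 (adjusted p = 0.375) and 0.32 (adjusted p = 0.0653), and without RANKL + Vit D + K replicate 2 it passed against PBS (0.43, adjusted p = 0.00404). Rps27a, made as a fusion to ubiquitin, was 0.21 and 0.25 in the same comparisons (adjusted p = 0.446 and 0.164), and also passed against PBS without that library (0.38, adjusted p = 0.00878).

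Loss of one copy of several ribosomal protein genes causes Diamond-Blackfan anaemia in humans, and 7 of these were examined, among them Rps19, Rps26, Rpl5 and Rpl11. In edgeR 0 of the 7 passed in any of the 3 comparisons, where 2.35%, 16.4% and 19.8% of all genes were higher and 1.26%, 17.2% and 21% lower. At an unadjusted p under 0.05 Rps26 alone did so, in both comparisons with PBS. DESeq2 called 1 of the 7, Rps26, as higher in RANKL + Vit D + K than in PBS. Without RANKL + Vit D + K replicate 2, Rps26 passed in edgeR in RANKL against PBS (adjusted p = 0.0331) and was among the genes of the list that passed in RANKL + Vit D + K against PBS (0.38, adjusted p = 0.00380). With all libraries, all 7 had intervals inside 1.5-fold in each comparison. Rps26 had 106, 110.4 and 110.3 FPKM in PBS, 152, 156 and 132 in RANKL and 131, 127 and 135 in RANKL + Vit D + K. Its 3 PBS libraries lay below all others, at a log2 fold change of 0.30 in each comparison with PBS (adjusted p = 0.173 for RANKL and 0.0550 with vitamins). Rps19, the most often mutated of them, had 76.2 to 83.3, 86.3 to 90.8 and 68.8 to 78.1 FPKM in PBS, RANKL and RANKL + Vit D + K, with log2 fold changes of 0.01, -0.12 and -0.11.

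Some ribosomal proteins have been given tasks of their own. Rpl38, which selects Hox mRNAs in the embryo, had log2 fold changes of 0.00, 0.07 and 0.07 for RANKL against PBS, RANKL + Vit D + K against RANKL and RANKL + Vit D + K against PBS. Rpl13a, part of an interferon-induced translation block, had 0.00, -0.18 and -0.17, and Rps25, needed for several viral internal ribosome entry sites, had 0.10, 0.03 and 0.13. Rps3 at the mRNA entry site had -0.04, 0.12 and 0.08, and Rpl41, the smallest of the proteins, had -0.04, -0.11 and -0.15. None of these passed, and the 95% intervals of Rpl38 and Rps3 for RANKL + Vit D + K against RANKL were -0.22 to 0.37 and -0.17 to 0.41. The 4 X-linked genes Rps4x, Rpl10, Rpl36a and Rpl39 had log2 fold changes of -0.05 to 0.29 in RANKL + Vit D + K against PBS, with Rpl36a highest (adjusted p = 0.0668). Without replicate 2, Rpl36a (0.39, adjusted p = 0.00399) and Rpl39 (0.30, adjusted p = 0.0205) passed. The 82 genes lie on 19 chromosomes, with 14 of them on chromosome 7.

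Paralogs known from single tissues were low. Rpl3l, the striated muscle form of Rpl3, had counts of 15, 0 and 0 in PBS, 10, 0 and 14 in RANKL and 0, 4 and 0 in RANKL + Vit D + K, so its fitted log2 fold change of -2.43 in RANKL + Vit D + K against RANKL, the largest of the 82 in size, had an interval of -6.95 to 2.08. Rpl39l, the testis form of Rpl39, had counts of 4, 49 and 0 in PBS, 14, 38 and 8 in RANKL and 19, 21 and 8 in RANKL + Vit D + K. Both were at most 0.0528% and 0.901% of their parent's FPKM in any library. Rps27l, a p53-induced relative of Rps27, was at 37.3, 44.3 and 41.5 FPKM in PBS, 51.1, 64.6 and 52.0 in RANKL and 44.2, 60.7 and 40.9 in RANKL + Vit D + K. It lay above PBS in every RANKL library without passing (0.32, adjusted p = 0.242).

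Rps27 varied more between replicates than most of the family, and its sequence is shown because a second gene carries the same letters. The first 90 bases of the coding frames (GENCODE M21, GRCm38) of Rps27 on chromosome 3, of its copy Rps27rt at chr9:114982366-114982739 and of Rps27l on chromosome 9 are shown, and capitals mark bases that differ from Rps27.
Rps27: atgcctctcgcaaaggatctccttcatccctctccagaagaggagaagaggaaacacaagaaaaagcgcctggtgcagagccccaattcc
Rps27rt: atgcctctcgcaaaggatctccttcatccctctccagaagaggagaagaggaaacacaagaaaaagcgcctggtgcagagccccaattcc
Rps27l: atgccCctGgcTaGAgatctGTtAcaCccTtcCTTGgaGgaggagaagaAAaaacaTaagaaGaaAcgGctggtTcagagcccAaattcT
Rps27rt was identical to Rps27 over all 255 bases of the frame, and Rps27l was the same at 194 of 255 (76.1%), with 24 of its differences in the stretch shown. The deposited counts of Rps27 were 13489, 6288 and 13765 in PBS, 12526, 11294 and 13310 in RANKL and 9987, 8475 and 11241 in RANKL + Vit D + K. Those of Rps27rt were 684, 7087 and 1612 in PBS, 2375, 1654 and 1568 in RANKL and 4433, 3644 and 2357 in RANKL + Vit D + K, and in PBS the library with the lowest Rps27 had the highest Rps27rt. Summed with its copies, Rps27 had 14173, 13375 and 15377 counts in PBS, and its SD between replicates fell from 0.450 to 0.203 on the log2 CPM scale.

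Rpl7a and Rpl17, described here after their values were seen, each have a highly counted pseudogene. Rpl7a had 24385, 14006 and 15656 counts in PBS and 15330, 13308 and 24613 in RANKL, and its copy Rpl7a-ps11 on chromosome X had 9655, 13111 and 11912 and then 15133, 14316 and 11609. Rpl17 had 11386, 9579 and 9504 counts in PBS, 11772, 6032 and 4702 in RANKL and 6987, 4934 and 4910 in RANKL + Vit D + K, while Rpl17-ps10 had 8155, 11865 and 8877, then 8760, 13293 and 14657, then 13469, 11584 and 13787. The apparent log2 fold change of Rpl17 in RANKL + Vit D + K against PBS, -0.83 (adjusted p = 0.0772) came with groups that did not overlap. Summed with its 7 copy rows, Rpl17 had 29334, 27584 and 27144 counts in PBS and 31238, 25245 and 28484 in RANKL + Vit D + K, which overlap. After summing with copies the SD between replicates fell from 0.418 to 0.211 for Rpl7a and from 0.485 to 0.187 for Rpl17.

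**Figure D4:**
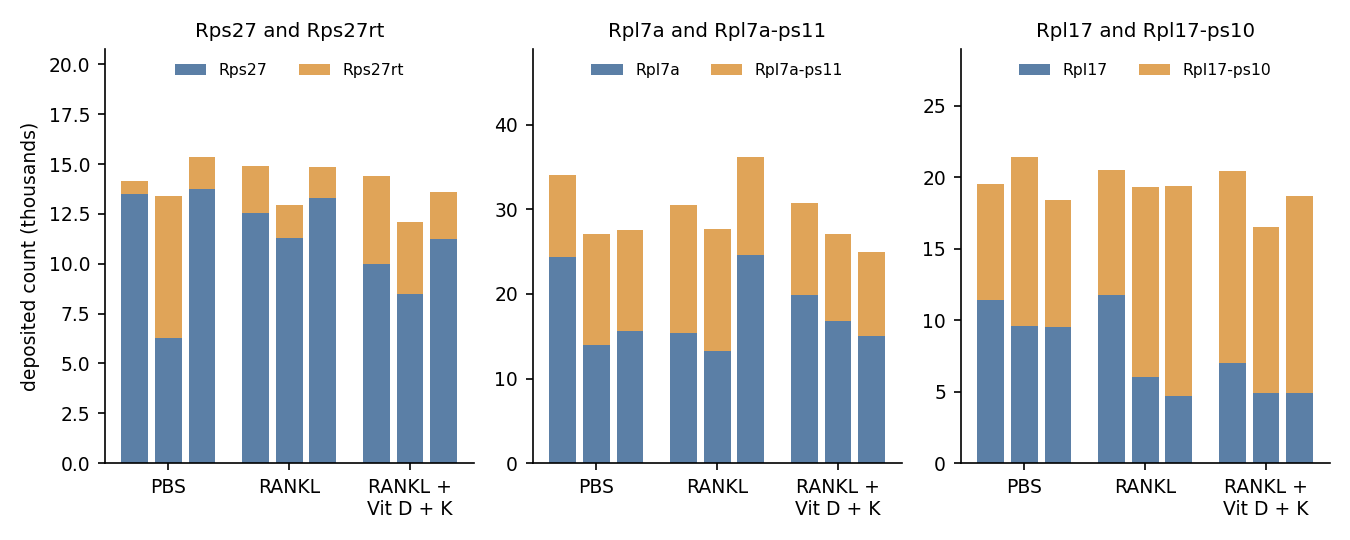
Deposited counts of Rps27, Rpl7a and Rpl17 with 1 copy each (Rps27rt, Rpl7a-ps11 and Rpl17-ps10), stacked for the 9 libraries in replicate order. The split between gene and copy moves from library to library, as in PBS replicate 2 of Rps27 (6288 counts beside 7087 for Rps27rt), more than the stacked height does.

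Such copies are common in this family. By sequence, 23 of the 82 genes shared at least 50% of the 100-base windows of their longest transcript with a transcript of another gene, the median gene shared 29.7%, and 8 shared none. Among the called genes the shared part was 46.8% for Rpl12, 32.9% for Rpl27a, 31.1% for Rpsa, 28.3% for Rpl15 and 5.14% for Rpl4, and how the counting treated shared reads is not stated, so the levels of the first 4 are uncertain to that extent. The 228 rows named as ribosomal protein pseudogenes held counts equal to 6.12% to 6.67% of those on the 82 genes in every library. When 230 copy rows were added to the 56 genes they belong to, an analysis chosen after the data were seen, the calls stayed at 0 and 0, 0 and 1, and 5 and 1 in the 3 comparisons. These rows were matched by name alone (-ps or rt). They held counts equal to 0.0187% of those on Rpl12, 0.284% for Rpl27a, 4.19% for Rpsa and 8.23% for Rpl15, and Rpl4 had none. Copies under other names were not added, so the unchanged calls cannot show how shared reads affected these genes.

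Spread between replicates was otherwise low. The median SD within groups was 0.148 on log2 CPM for the 82 genes, beside 0.340 for all genes tested and 0.182 for abundant genes. Only 7 genes exceeded 0.3, namely Rpl39l (1.52), Rpl3l (1.48), Rps4l (0.678), Rpl17 (0.485), Rps27 (0.450), Rpl7a (0.418) and Rpl21 (0.362), and the last 4 have copy rows. These were named after their values were seen.

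The 7 ribosomal protein genes whose symbols fall outside the rule gave 0 higher and 0 lower in RANKL against PBS, 0 and 1 in RANKL + Vit D + K against RANKL, and 0 and 1 in RANKL + Vit D + K against PBS (0 and 0, 1 and 1, 1 and 2 without replicate 2). Over all genes tested the shares were 2.35% and 1.26%, 16.4% and 17.2%, and 19.8% and 21%, and without replicate 2 they were 5.46% and 5.23%, 21.2% and 25.2%, and 23.3% and 26.5%. Fau, which encodes Rps30 fused to a ubiquitin-like protein, had 379, 333 and 359.7 FPKM in PBS, 370.0, 333.5 and 355 in RANKL and 277, 276 and 264 in RANKL + Vit D + K, and fell by 0.37 against PBS (adjusted p = 0.0339). Rpl7l1, a biogenesis relative of Rpl7, fell by 0.46 against RANKL (adjusted p = 0.0345). Rpl22l1, the paralog of Rpl22, had 53.7% ± 7.64 of its parent's FPKM in PBS, 50.03% ± 3.91 in RANKL and 64.0% ± 10.5 in RANKL + Vit D + K, and did not pass (0.37 against PBS, adjusted p = 0.131).

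Other mRNAs that begin with a TOP tract include those of elongation and initiation factors. Of 15, 2 were higher and 0 lower in RANKL against PBS, 3 and 1 in RANKL + Vit D + K against RANKL, and 6 and 1 in RANKL + Vit D + K against PBS, with medians of 0.16, 0.02 and 0.17. Without replicate 2 the counts were 5 and 1, 4 and 1, and 8 and 1. Among abundant genes 5.81%, 50% and 54.6% were called in either direction with all libraries, and 22.7%, 67.6% and 70.5% without replicate 2. Hnrnpa1, a splicing regulator, had 46.8, 59.9 and 44.5 FPKM in PBS, 79.6, 113 and 83.6 in RANKL and 141, 119 and 135 in RANKL + Vit D + K, and rose by 1.42 against PBS (adjusted p = 0.000533). Pabpc1, the poly(A)-binding protein, rose by 0.75 (adjusted p = 0.00117) and Nap1l1, a histone chaperone, by 0.81 (adjusted p = 0.00123) against PBS. The main elongation factor Eef1a1, added after its values were seen, had log2 fold changes of -0.07, -0.01 and -0.08.

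Genes that deliver or place ribosomal proteins were also examined. All 9 chaperone and assembly genes on the list were higher in RANKL + Vit D + K than in PBS (8 without replicate 2), 6 were higher than in RANKL (6 without replicate 2), and 1 was higher in RANKL than in PBS (2 without it), with medians of 1.05, 0.68 and 0.38. Over all genes tested 19.8%, 16.4% and 2.35% were higher in these comparisons, and 23.3%, 21.2% and 5.46% without replicate 2. Ltv1, a pre-40S factor, had 8.44, 6.68 and 8.001 FPKM in PBS, 8.50, 12.3 and 9.16 in RANKL and 24.3, 19.0 and 21.7 in RANKL + Vit D + K. It was highest in the vitamin group in each library, and rose by 1.28 against RANKL (adjusted p = 0.00191). Rpf2 and Rrs1, which place the 5S particle with Rpl5 and Rpl11, rose by 0.94 (adjusted p = 0.0172) and 0.71 (adjusted p = 0.0154) against RANKL while Rpl5 and Rpl11 were at 0.10 and -0.07. Grwd1, the chaperone of Rpl3, and Tsr2, that of Rps26, rose by 1.51 (adjusted p = 0.00275) and 0.82 (adjusted p = 0.0336) against PBS, beside 0.15 for Rpl3 and 0.30 for Rps26; both were picked after their values were seen. The difference between a chaperone and its client was not itself tested.

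**Figure D5:**
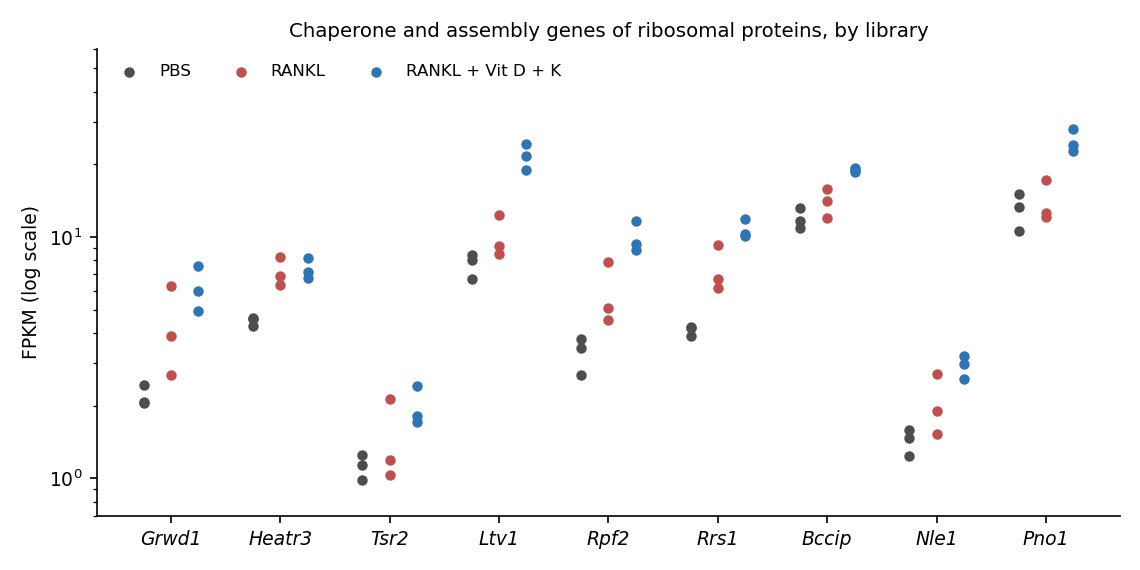
FPKM (log axis) of 9 chaperone and assembly genes in each of 9 libraries, coloured by group. The RANKL + Vit D + K points lie above the PBS points in all 9 genes, as for Ltv1 with 19.0 to 24.3 against 6.68 to 8.44 FPKM.

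mTORC1 controls translation of TOP mRNAs. Of 15 genes around it, 0 were called in RANKL against PBS, 6 rose and 2 fell in RANKL + Vit D + K against RANKL, and 7 rose and 2 fell against PBS (0, then 7 and 2, then 8 and 3 without replicate 2). Over all genes tested 2.35% rose and 1.26% fell in RANKL against PBS. With vitamins 16.4% rose and 17.2% fell against RANKL, and 19.8% and 21% against PBS. Without replicate 2 these shares were 5.46% and 5.23%, 21.2% and 25.2%, and 23.3% and 26.5%. Among abundant genes 50% and 54.6% were called in the 2 comparisons with vitamins, with all libraries. Eif4ebp1, a translation repressor that mTORC1 inactivates, had 15.1, 14.1 and 15.9 FPKM in PBS, 15.3, 18.4 and 13.5 in RANKL and 41.9, 47.0 and 40.8 in RANKL + Vit D + K, and rose by 1.61 against RANKL (adjusted p = 0.000186). Deptor, an inhibitor within the mTOR complex, fell by 1.93 (adjusted p = 0.000744) and Rheb, the GTPase that activates mTORC1, rose by 0.85 (adjusted p = 0.00160) in the same comparison. Larp1, which binds the TOP tract itself, rose by 0.58 against RANKL (adjusted p = 0.00607). Eif4ebp2, a paralog of Eif4ebp1, fell by 1.59 (adjusted p = 0.00212), while Sesn2 and Tsc1, which restrain mTORC1, rose by 1.71 (adjusted p = 0.00256) and 0.95 (adjusted p = 0.0220). Larp1, Eif4ebp2, Sesn2 and Tsc1 were named after their values were seen.

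Of the 3 genes listed for the step at which free ribosomal proteins bind MDM2 and act on p53, 0 were called in RANKL against PBS. There 2.35% of all genes tested were higher and 1.26% lower. In each comparison with vitamins 2 rose, while 16.4% and 19.8% of all genes tested rose. Without replicate 2 the counts were the same, beside 21.2% and 23.3%. Free ribosomal proteins were not measured, and their part in these genes was not tested. Mdm2 had 22.3, 24.2 and 25.6 FPKM in PBS, 22.5, 27.3 and 23.1 in RANKL and 80.2, 41.2 and 67.1 in RANKL + Vit D + K, and rose by 1.55 against RANKL (adjusted p = 0.00290). Cdkn1a rose by 0.80 (adjusted p = 0.0131), and Trp53 was at 0.08 (adjusted p = 0.710). Of the 5 genes that drive transcription of ribosomal protein genes, 1 rose in RANKL against PBS and 2 in each comparison with vitamins (1, 3 and 3 without replicate 2), beside 2.35%, 16.4% and 19.8% of all genes tested. Without replicate 2 those shares were 5.46%, 21.2% and 23.3%. Myc had 0.217, 0.636 and 0.345 FPKM in PBS, 4.01, 14.0 and 2.57 in RANKL and 48.1, 18.5 and 24.99 in RANKL + Vit D + K, and rose by 3.93 with RANKL (adjusted p = 0.0217) and by a further 2.37 with vitamins (adjusted p = 0.0219). Tbpl1, which serves TATA-less promoters, rose by 1.87 against RANKL (adjusted p = 0.000870), while Gabpa was at 0.23 (adjusted p = 0.199).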

How the data were processed

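RNA-seq of 9 libraries (3 groups of 3) was analysed from 1 table. The authors deposited whole-number counts per gene, not normalized, and FPKM values, which the authors scaled to transcript length and library size. The submitters' processing notes name cutadapt 1.9, HISAT2 2.0.4, StringTie 1.3.4d and edgeR; they name the human build hg38, while the table holds mouse genes with GRCm38 coordinates. Whether strand was used, and how reads shared between genes were treated, is not stated.

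Counts were compared in R 4.3.3 with edgeR 4.0.16 (filterByExpr, TMM, quasi-likelihood F test, Benjamini-Hochberg over 17002 genes, threshold 0.05) in 1 model of all 9 libraries. Standard errors and 95% intervals follow from the F value. log2 CPM used a prior count of 2. Depth was 65915112 to 68229647 counts, so 3 counts are at most 4.55e-06% of a library; this covers counting error only. Alternatives were DESeq2 1.42.0, limma 3.58.1 on log2(FPKM + 1) and log2(FPKM + 0.1), voom with quality weights, other scalings, no filter, only the 2 groups compared, each library left out, a replicate block and removal of a loess trend on length (span 0.5). The fits were tested on simulated counts.

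Replicate numbers are those of the labels. Deviations of same-numbered libraries correlated at 0.122, 0.219 and 0.155 for RANKL and PBS, which were read as possibly paired. The values were 0.00625, 0.0428 and 0.107 for RANKL + Vit D + K and RANKL, and -0.0216, 0.0217 and 0.0237 for RANKL + Vit D + K and PBS, which were not. The main tests and intervals used no pairing in any comparison, and the replicate block was only an alternative. The pairing comes from these data alone.

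Members and gene lists were chosen with earlier results of these data known. Named genes were a list by role, up to 5 members per direction and comparison past the threshold with groups that did not overlap, the highest and lowest by FPKM, and up to 3 per pathway list with the smallest adjusted p; others are said to be chosen after their values were seen. Lists of cell type markers are summarised by summed FPKM, and that for T cells was not analysed here. Start windows are RefSeq (GRCm38.p6), other annotation GENCODE M21. Protein sequences were not used, and values of a few genes that enter the counts are not reported here.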

Additional observations from a re-analysis of the deposited data

How the results depend on the processing

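Counts of ribosomal protein genes called (higher and lower) were 0 and 0 for RANKL against PBS, 0 and 1 for RANKL + Vit D + K against RANKL, and 5 and 1 for RANKL + Vit D + K against PBS, and they changed as follows, the cause not being tested unless stated. Fits on the 2 groups compared gave 6 and 0, 0 and 0, 1 and 2. Library totals alone gave 4 and 0, 0 and 5, 8 and 2, limma on log2(FPKM + 1) gave 9 and 0, 0 and 12, 9 and 3, and limma on log2(FPKM + 0.1) gave 0 and 0, 0 and 2, 4 and 0; these carry no TMM factor. Upper-quartile factors gave 0 and 0, 0 and 2, 3 and 2, DESeq2 gave 0 and 0, 0 and 1, 7 and 3, and voom with quality weights, which weighs RANKL + Vit D + K replicate 2 at 0.142, gave 9 and 0, 5 and 6, 23 and 5. With length trend removed the counts were 0 and 0, 0 and 0, 16 and 0, and with the replicate block as well 0 and 0, 1 and 0, 16 and 1. The replicate block alone gave 0 and 0, 0 and 1, 5 and 3, and changed no other count. Shares of all genes called are given only for the main fit and for that without RANKL + Vit D + K replicate 2. The other counts have no background beside them.

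Leaving out 1 library gave 0 to 2 higher in RANKL against PBS, 0 to 8 higher and 0 to 1 lower in RANKL + Vit D + K against RANKL, and 3 to 26 higher and 0 to 2 lower in RANKL + Vit D + K against PBS. The highest counts, 2, 8 and 26, came without RANKL + Vit D + K replicate 2. The call of Rpl15 against RANKL was lost without RANKL replicate 1 or 3 or RANKL + Vit D + K replicate 3, and that against PBS without any 1 PBS library or RANKL + Vit D + K replicate 1 or 3. No called gene changed direction in any of the 23 alternatives.

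Across scalings the median of all genes moved from -0.04 to 0.08 in RANKL against PBS and to -0.18 in RANKL + Vit D + K against RANKL with library totals alone, where the members' medians were 0.17 and -0.12. The members' share of counts, 2.84%, 3.25% and 2.97% in PBS, RANKL and RANKL + Vit D + K, was 3.07%, 3.50% and 3.19% with the 7 ribosomal protein genes outside the rule, and 5.01%, 5.63% and 5.57% as a share of summed FPKM. At 3 libraries per group the intervals of most members exclude a 1.5-fold change.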
